A study of Homo sapiens with 24 samples.

Results

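HCT116 cells, an established human colorectal carcinoma line of epithelial origin, were compared at the higher and the lower of the 2 doses of G669071, a prodrug known in the labels by its code name. The 4 arrays titled for G669071 were taken from the 24 arrays of the series, 2 at each dose, and the 4 DMSO (vehicle) arrays gave the level without compound. The titles give the doses as 63 and 6 µM, whereas the source descriptions give 120 and 6 nM, so the concentrations are not settled here. Both labels put the same 2 arrays at the higher dose, and "higher dose" and "lower dose" are used throughout. All of these cells came from ATCC, were kept in RPMI1640 with 5% FBS, and were exposed for 72 h to compound from a concentrated DMSO stock or to as much DMSO. The same series holds 2 doses each of DAC (decitabine), Aza (azacytidine) and the prodrugs G668684 and G669043, also with 2 arrays a dose. All arrays are Affymetrix HG-U133 Plus 2.0, which measures RNA with probe sets near the 3' ends of transcripts.

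DNA methyltransferases such as DNMT1 copy cytosine methylation at CG dinucleotides onto new DNA after replication, and methylation of a promoter usually accompanies silencing of its gene. Decitabine and azacytidine are cytidine analogs that are built into DNA and trap these enzymes on it, so methylation is diluted as cells divide, and the trapped complexes also damage DNA. Germ cell and cancer-testis genes are textbook examples of genes silenced by methylation in somatic cells, and HCT116 cells carry wild-type p53, which answers DNA damage by raising CDKN1A and other targets. A prodrug releases its active drug inside the body or the cell. The series title names its compounds as inhibitors of DNMT1, and no structure is stated here for G669071.

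Of the epithelial markers, EPCAM, CDH1 and KRT18 lay at 12.65 to 13.26, 10.08 to 10.63 and 13.59 to 14.01 on all 8 G669071 and DMSO arrays, as log2 of the deposited intensity, the scale of every level given here. Other markers of the 18 measured had low values, among them CDH17 (6.81 to 7.08), TFF3 (6.79 to 7.21), LGALS4 (6.68 to 7.62) and VIL1 (7.22 to 7.49). In the results below levels are compared within a gene only. Replicates correlated at r = 0.998 across genes at each dose, and arrays of different doses at 0.99 to 0.991. The beta-actin 3' minus 5' signal, a sign of RNA degradation, was 0.04 and 0.05 log2 at the higher dose and 0.09 and 0.03 at the lower dose. It was -0.03 and 0.00 on DMSO replicates 1 and 2 and 0.24 and 0.15 on replicates 3 and 4, and across genes these arrays correlated at 0.997 within each pair and at 0.99 to 0.991 between the pairs, as far apart as the 2 doses. The labels name no batch. Between the means of the DMSO pairs 22 genes were at least 2-fold higher in replicates 3 and 4 and none lower. DMSO levels are therefore given as ranges, and the shift of a list between the pairs (replicates 3 and 4 minus 1 and 2) is given beside the median dose difference of each list described with one, without a test of its part in the result.

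Of 18055 genes tested, 1688 (9.35%) differed between the doses at an adjusted p under 0.05, 1019 (5.64%) higher at the higher dose and 669 (3.71%) lower (limma over all 24 arrays, Benjamini-Hochberg adjustment over all genes). Counts of called members in the lists below are to be read beside these shares of all genes. The rises were the larger changes: 130 genes were at least 2-fold higher and 4 at least 2-fold lower. At 4-fold or more the counts were 11 and 0. Against DMSO, 5322 genes (29.5%) were called at the higher dose and 2815 (15.6%) at the lower dose. The middle gene of all tested differed by -0.02 log2 between doses, and the median 95% interval of a difference reached 0.239 log2 to either side. With 1 of the 4 arrays left out, the count was 877 or 876 without higher-dose replicate 1 or 2, and 890 or 725 without lower-dose replicate 1 or 2. Calls of named genes held under each of these omissions unless a loss is given beside them. The p-values rest on the spread between replicate arrays within every group of the 24 arrays, including the unlike DMSO pairs. The labels do not say that replicates were separate cultures, so this spread may be technical.

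The gene with the largest dose difference was TAC1, which encodes the precursor of substance P. It read 8.05 and 7.65 at the higher dose, 4.27 and 4.19 at the lower dose, and 3.52 to 3.91 in DMSO. The difference was 3.62 ± 0.18 log2 (SE, n = 2 against 2), or 12.3-fold (adjusted p = 4.4e-10). Each SE given here rests on the spread within all 11 groups of the 24 arrays, DMSO included, and not on these 4 arrays alone. Only the higher-dose arrays of TAC1 stood far above DMSO. CDO1, which encodes cysteine dioxygenase, read 10.63 and 10.73, against 7.65 and 7.57 at the lower dose and 5.98 to 6.13 in DMSO. It rose 8.4-fold between doses (3.07 ± 0.17 log2, adjusted p = 1.6e-09), and here the lower dose was already above every DMSO array. KCNV2, a voltage-gated potassium channel subunit, read 7.96 and 8.16 against 5.04 and 5.22, a 7.62-fold rise (2.93 ± 0.19 log2, adjusted p = 1.4e-08), with DMSO at 4.08 to 4.54. None of these 3 genes had overlapping groups.

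The promoters of these 3 genes are shown because CG dinucleotides are where DNA methyltransferases act, and these stretches hold unlike numbers of them. Each is the 250 bases before the RefSeq transcription start on GRCh38.p14, read along the gene's strand, with every CG in capitals. TAC1 lies on the plus strand at chr7:97731836-97732085 and holds 18 CG, CDO1 on the minus strand at chr5:115816660-115816909 with 26, and KCNV2 on the plus strand at chr9:2717260-2717509 with 4.
TAC1: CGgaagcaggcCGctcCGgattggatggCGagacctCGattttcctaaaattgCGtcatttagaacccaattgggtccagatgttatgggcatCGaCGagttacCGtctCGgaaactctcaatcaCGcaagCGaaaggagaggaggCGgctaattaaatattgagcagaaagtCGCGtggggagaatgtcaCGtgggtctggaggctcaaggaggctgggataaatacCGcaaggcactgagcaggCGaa
CDO1: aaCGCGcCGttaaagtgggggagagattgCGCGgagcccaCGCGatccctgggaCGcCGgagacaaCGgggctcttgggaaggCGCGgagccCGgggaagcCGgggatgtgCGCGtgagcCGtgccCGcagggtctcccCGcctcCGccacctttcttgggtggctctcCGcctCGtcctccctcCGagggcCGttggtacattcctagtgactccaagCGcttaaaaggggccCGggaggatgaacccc
KCNV2: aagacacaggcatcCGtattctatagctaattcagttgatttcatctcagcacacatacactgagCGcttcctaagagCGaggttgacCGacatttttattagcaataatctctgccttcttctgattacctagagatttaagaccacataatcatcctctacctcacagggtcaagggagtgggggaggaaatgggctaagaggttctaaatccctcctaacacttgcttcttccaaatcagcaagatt
Over the 14136 tested genes with a promoter in the RefSeq table the median was 20 CG. It was 22 for the 842 matched genes called higher, 20 for the 101 of them at least 2-fold higher, and 23 for the 548 called lower. The CG count of KCNV2 lay below the lower quartile of all promoters (11), and those of TAC1 and CDO1 lay between the quartiles (11 and 28). Methylation itself was not measured.

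The other 12 of the 15 largest rises ran from 1.87 to 2.38 log2. CXCL8 (interleukin-8), a neutrophil chemokine, is described with the chemokines below. TSPYL5 rose by 2.35 ± 0.21 log2 (8.14 and 8.52 against 6.10 and 5.86), and TUBB2B, a beta-tubulin typical of neurons, by 2.31 ± 0.18 (8.54 and 8.79 against 6.40 and 6.31). BEX1, a small gene of the X chromosome first known from brain, read 9.49 and 9.47 against 7.48 and 7.40, with DMSO at 6.84 to 7.21. Its difference was 2.04 ± 0.13 log2 (adjusted p = 1.1e-08). Its relative BEX4 rose by 1.72 ± 0.20 log2. TFPI2, a protease inhibitor known as methylated in colorectal cancer, rose by 1.90 ± 0.18 log2 (9.27 and 9.29 against 7.39 and 7.38). PNMA8A rose by 2.01 ± 0.12, DCAF4L2 by 1.87 ± 0.22, and 3 transcripts annotated as pseudogenes, ZNF542P, DPY19L2P2 and MEIS3P1, by 2.22, 2.08 and 1.88 log2. Pseudogene probe sets may read a related gene as well. RBM46, whose protein binds RNA during meiosis, rose by 1.87 ± 0.40 log2, and its call was lost without higher-dose replicate 1 (adjusted p = 0.057) or lower-dose replicate 2 (0.079). In each of these 15 genes both higher-dose arrays lay above both lower-dose arrays, which the naming rule required.

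**Figure D1:**
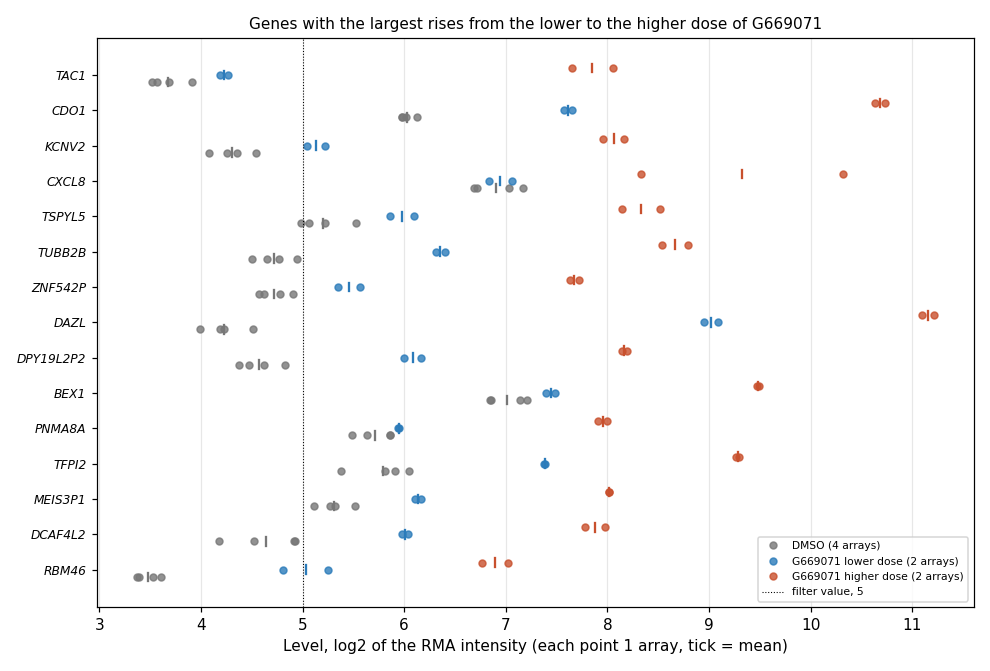
Levels of the 15 genes with the largest rises, as log2 of the RMA intensity (x axis), with 1 point per array and a tick at each group mean. The 2 higher-dose arrays lie above the 2 lower-dose arrays in each gene, and CXCL8 has the widest gap between its higher-dose arrays (10.32 and 8.33).

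Genes of germ cells and meiosis held 20 rises, the highest count among the 30 lists, which differ in size (by share of measured genes the histone list was as full, with 10 of 19). Of 51 genes listed, 39 were measured above the filter on low values. Of these 20 rose and none fell, beside 5.64% of all genes called higher and 3.71% lower. The median difference was 0.51 log2 beside -0.02 for all genes. Between the DMSO pairs the median of this list was -0.10. A gene silent in DMSO passes that filter only if some treated arrays raise it, so these counts describe the measured members only. Without higher-dose replicate 1 or 2 the rises numbered 15 and 14, and without lower-dose replicate 1 or 2 they numbered 15 and 13. DAZL, an RNA-binding protein that germ cells need, read 11.21 and 11.10 at the higher dose, 9.09 and 8.95 at the lower dose and 3.99 to 4.51 in DMSO. Its 2.13 ± 0.22 log2 difference between doses (4.39-fold, adjusted p = 2.3e-06) came on top of a lower dose already 4.79 log2 above DMSO. SYCP3, a structural protein of meiotic chromosomes, rose by 1.59 ± 0.21 log2 (10.33 and 10.52 against 8.95 and 8.73).

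Several of the other risers belong to the machinery that guards the germ line with small piRNAs. MAEL, a piRNA pathway protein, read 11.23 and 11.31 against 10.23 and 10 (1.16 ± 0.13 log2, adjusted p = 8.2e-06), with DMSO at 5.47 to 5.71. HENMT1, which methylates the ends of piRNAs, rose by 1.38 ± 0.18 log2, the tudor-domain helicase TDRD9 by 1.37 ± 0.13, and TDRD6 by 1.25 ± 0.18. DDX4, the germ cell helicase also called VASA, rose by 0.78 ± 0.13 log2 from 6.27 and 6.21 to 7.09 and 6.94. Among the germ cell and pluripotency genes, DPPA5 rose by 1.18 ± 0.11 log2 and NANOS1 by 1.29 ± 0.16. Of the 2 probe sets of NANOS1 only 1 had a positive difference. ZFP42 (REX1) read 10.28 and 10.13 against 9.03 and 8.81 (1.29 ± 0.27 log2), a call that was lost without lower-dose replicate 2 (adjusted p = 0.056). DPPA4 rose by 1.19 ± 0.21 log2, a call lost when probe sets that may bind several transcripts were left out.

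TKTL1, GCNA and LIN28B stood far above DMSO at both doses, and their dose differences were smaller than that to DMSO. TKTL1, a transketolase-like gene active in testis, read 12.75 and 12.76 at the higher dose, 12.40 and 12.45 at the lower dose and 4.70 to 5.54 in DMSO. The groups did not overlap, but the dose difference of 0.33 log2 did not pass the test (95% interval -0.05 to 0.71, adjusted p = 0.32). Among the alternatives run it passed only with the 4 G669071 arrays fitted alone. GCNA, a germ cell nuclear protein, differed by 0.70 ± 0.17 log2 (adjusted p = 0.011), a call lost without higher-dose replicate 2 (0.11) or lower-dose replicate 1 (0.079) or 2 (0.075). LIN28B, an RNA-binding protein that blocks let-7 maturation, differed by 0.64 ± 0.16 log2 (adjusted p = 0.014), and its call was lost without any 1 of the 4 arrays (0.052 to 0.13). Both stood more than 4 log2 above DMSO already at the lower dose, by 5.60 and 4.31.

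Of the measured cancer-testis genes, expressed in testis and in many tumors, 23 had a positive dose difference and 6 a negative one, called or not. Of 50 listed, 29 were measured, 10 rose and 1 fell, beside 5.64% and 3.71% of all genes. The list median was 0.36 log2 (-0.10 between the DMSO pairs). As with the germ cell list, members silent in DMSO were measured only if treated arrays raised them, so these values describe the measured members only. The rises numbered 3 to 5 when any 1 of the 4 arrays was omitted. CTAG2 (LAGE-1) held its call, reading 10.22 and 10.27 against 9.05 and 9.01, with DMSO at 7.23 to 7.57 (1.21 ± 0.11 log2, adjusted p = 5.1e-07). MAGEB2 also held its call, at 0.34 ± 0.07 log2. MAGEA4 read 11.30 and 11.33 against 10.54 and 10.53 and 5.47 to 5.72 in DMSO. Its difference of 0.78 ± 0.19 log2 and that of MAGEA8, 0.87 ± 0.21, lost their calls without any 1 of the arrays (adjusted p = 0.064 to 0.08 and 0.069 to 0.088). MAGEA1 rose by 0.76 ± 0.17 log2, a call lost without higher-dose replicate 1 (adjusted p = 0.051) or lower-dose replicate 1 (0.061). The single fall, PAGE4 at -0.51 ± 0.15, was likewise lost without any 1 array (0.076 to 0.24). MAGE genes are near-identical copies of each other, and their probe sets may share signal.

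Histone genes whose transcripts are read by this array rose in large part, beside 5.64% of all genes called higher and 3.71% lower. Of 26 listed, 19 were measured, 10 rose and 2 fell, with a median of 0.40 log2 (0.04 between the DMSO pairs), and 7 rises remained in count under each omission of 1 array. H4C8 read 8.07 and 8.02 against 6.48 and 6.26 (1.68 ± 0.18 log2, adjusted p = 3.6e-06), with DMSO at 5.58 to 6.00. The H2B genes H2BC9, H2BC21 and H2BC5 rose by 1.1, 1.09 and 1.03 log2, and the linker histone gene H1-2 by 0.99 ± 0.16. Transcripts of replication-dependent histone genes normally end without a poly(A) tail, and the labelling used here is based on MessageAmp, which primes on poly(A), so the array reads the polyadenylated part. Histone genes resemble each other closely, and the signals of copies cannot be told apart. The 2 that fell were MACROH2A2 at -0.46 ± 0.08 log2 and H2AZ2 at -0.34 ± 0.08. The latter call was lost without higher-dose replicate 1 (adjusted p = 0.10) or lower-dose replicate 2 (0.071), with the mean of its probe sets, and without the shared probe sets.

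Imprinted genes normally have a single active parental copy. Of 30 listed, 24 were measured, 8 rose and 1 fell, beside 5.64% and 3.71% of all genes. The list median was 0.04 log2 (0.08 between the DMSO pairs). DIRAS3, a Ras-like growth suppressor, read 7.34 and 7.39 at the higher dose, 5.93 and 6.32 at the lower dose and 6.50 to 7.08 in DMSO (1.24 ± 0.17 log2, adjusted p = 7.5e-05). The lower dose was below every DMSO array and the higher dose above. INPP5F rose by 1.01 ± 0.12 log2 and NAP1L5 by 0.99 ± 0.14. CDKN1C, which encodes the CDK inhibitor p57, was the gene that fell, from 9.43 and 9.46 to 9.01 and 9.07 (-0.41 ± 0.08 log2), both above DMSO at 8.43 to 8.63.

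Genes known as methylated in colorectal tumors rose in 8 and fell in 1 of 38 measured of 43 listed. Over all genes 5.64% were called higher and 3.71% lower. The list median was -0.06 log2 (-0.08 between the DMSO pairs). The risers included TAC1, CDO1 and TFPI2. CHFR, a mitotic checkpoint ubiquitin ligase, read 7.51 and 8.04 against 6.50 and 6.56 (1.25 ± 0.19 log2, adjusted p = 0.00025). Of the 3 probe sets of CHFR 2 had a positive difference. UCHL1, a deubiquitinase of neurons, read 11.19 and 11.24 against 9.99 and 10.06 and 6.65 to 7.38 in DMSO (1.19 ± 0.17 log2), a call lost when shared probe sets were left out. VIM (vimentin) stood far above DMSO (7.83 to 8.10) at both doses, at 11.64 and 11.67 against 11.34 and 11.33. Its dose difference of 0.32 ± 0.08 log2 lost its call without any 1 of the arrays (adjusted p = 0.083 to 0.12). CDKN2A, the gene of p16 and p14ARF, was the one that fell, by 0.30 log2 from 10.05 and 10.13 to 9.78 and 9.80. That call was lost without higher-dose replicate 1 (adjusted p = 0.063) or lower-dose replicate 2 (0.11), with the mean of its probe sets and without the shared ones.

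**Figure D2:**
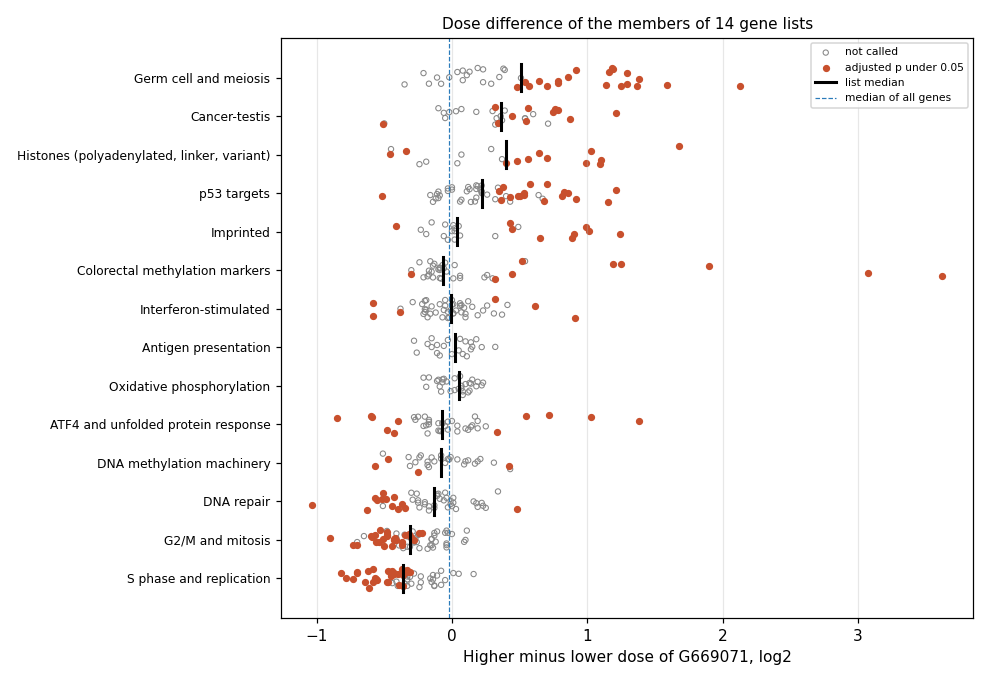
Difference between the doses of G669071 in log2 (x axis) for the measured members of 14 gene lists, with filled points for genes at an adjusted p under 0.05, open points for the rest, a black bar at each list median and a dashed line at the median of all genes. The germ cell list has the highest median (0.51) and the S phase list the lowest (-0.36).

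Targets of p53 rose in 17 and fell in 1 of the 52 measured of 57 listed, beside 5.64% and 3.71% of all genes. The list median was 0.22 log2. The same list differed by a median of 0.21 log2 between the DMSO pairs, as large a shift as that between the doses. Without higher-dose replicate 1 or 2 the rises numbered 14 and 10, and without lower-dose replicate 1 or 2 they numbered 12 and 9. CDKN1A (p21), which halts the cell cycle, read 11.62 and 11.64 against 10.72 and 10.81, and 9.97 to 10.29 in DMSO (0.86 ± 0.08 log2, 1.82-fold, adjusted p = 1.5e-06). The 3 groups did not overlap and lay in the order of dose. TIGAR, a regulator of glycolysis, rose by 1.15 ± 0.16 log2 (11.25 and 11.30 against 10.15 and 10.09), ACTA2 by 0.92 ± 0.14 and TP53I3 by 0.83 ± 0.10. The pro-apoptotic BH3 gene PMAIP1 (NOXA) read 12.38 and 12.39 against 11.78 and 11.77, with DMSO at 11.57 to 11.86 (0.61 ± 0.09 log2). The lower dose of PMAIP1 thus lay within the DMSO range.

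The death receptor gene FAS read 9.69 and 9.93 against 8.59 and 8.62, with DMSO at 8.55 to 8.87 (1.21 ± 0.11 log2, adjusted p = 9.4e-07). Of its 5 probe sets 4 had a positive difference. With shared probe sets left out, the probe set that then stood for FAS gave -0.04 log2. The TRAIL receptor genes TNFRSF10B and TNFRSF10D rose by 0.49 ± 0.13 and 0.54 ± 0.13 log2. The first call was lost without any 1 of the arrays (adjusted p = 0.096 to 0.12), and the second held only without higher-dose replicate 1 (0.048 to 0.13). GDF15, a stress cytokine, differed by 0.36 ± 0.11 log2 (adjusted p = 0.032), was lost without any 1 array (0.10 to 0.22), and gave -0.10 without shared probe sets. MDM2, the ubiquitin ligase of p53, read 11 and 10.94 against 10.42 and 10.18, with DMSO at 9.56 to 10.41. Its 0.67 log2 difference did not pass (adjusted p = 0.12), but did with the mean of its 9 probe sets. It also passed with the 4 G669071 arrays alone, the 20 treated arrays alone, a replicate block over all arrays, or the beta-actin covariate. KITLG, the ligand of KIT, was the target that fell, by 0.52 log2 from 12.83 and 12.89 to 12.25 and 12.43, a call lost with the mean of its probe sets.

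Replication genes, active in S phase, fell together. Of 58 listed, 57 were measured, 30 fell and none rose, against 3.71% of all genes called lower, and the median was -0.36 log2 (0.16 between the DMSO pairs). Without higher-dose replicate 1 the falls numbered 21, without replicate 2 they numbered 26, and without lower-dose replicate 1 or 2 they numbered 21 each. PRIM1, the catalytic subunit of primase, read 10.14 and 10.33 at the higher dose, 11.08 and 11.02 at the lower dose and 11.43 to 11.62 in DMSO. It was 1.76-fold lower (-0.82 ± 0.07 log2, adjusted p = 5.7e-07), and its 3 groups did not overlap. The origin licensing factor CDT1 read 9.51 and 9.59 against 10.30 and 10.26 (-0.73 ± 0.12 log2), and DMSO 10.72 to 11.14. ORC1 of the origin recognition complex differed by -0.70 ± 0.09 log2, the clamp loader subunit RFC5 by -0.70 ± 0.08, GINS2 by -0.64 ± 0.07, and the helicase subunits MCM5 and MCM2 by -0.62 and -0.58. GINS2 lost its call without shared probe sets, and 2 of the 3 probe sets of RFC5 had a negative difference. DTL, an adaptor for the destruction of CDT1, differed by -0.78 ± 0.17 log2 (8.86 and 8.90 against 9.63 and 9.68) and lost its call without lower-dose replicate 2 (adjusted p = 0.053).

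The promoters of CDT1 and DTL are printed because both genes fell and both hold letters that the E2F factors of S phase are known to bind. The same 250 bases were searched on both strands for TTTCCCGC, TTTGGCGC, TTTCGCGC and TTTGCCGC, and matches are in capitals. CDT1 lies on the plus strand at chr16:88803539-88803788, where GCGGGAAA is a match on the other strand, and DTL on the plus strand at chr1:212035498-212035747, where the match ends at the base before the start.
CDT1: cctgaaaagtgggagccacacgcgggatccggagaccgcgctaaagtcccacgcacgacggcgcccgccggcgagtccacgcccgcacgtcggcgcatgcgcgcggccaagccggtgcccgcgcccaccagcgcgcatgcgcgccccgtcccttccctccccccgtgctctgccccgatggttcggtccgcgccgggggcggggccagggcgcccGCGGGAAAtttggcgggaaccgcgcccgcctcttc
DTL: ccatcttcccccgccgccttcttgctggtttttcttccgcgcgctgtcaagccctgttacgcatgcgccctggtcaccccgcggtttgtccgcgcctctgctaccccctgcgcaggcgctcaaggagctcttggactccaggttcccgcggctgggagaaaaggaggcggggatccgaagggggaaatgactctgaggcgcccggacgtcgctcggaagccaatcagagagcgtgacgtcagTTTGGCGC
Of all 14136 matched promoters 670 (4.74%) held such letters, as did 19 of 49 on the replication list (38.8%) and 9 of the 27 of that list called lower (33.3%). Over all genes called lower the share was 9.67%, and over those called higher 3.92%. None of the 33 matched germ cell promoters held them. The promoters of PRIM1, RFC5 and ORC1 had no match in this window although the genes fell. A match of letters is a description and not a measured site.

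Genes of G2 and mitosis also fell. All 68 listed were measured, 27 fell and none rose, beside 3.71% and 5.64% of all genes. The list median was -0.31 log2 (0.25 between the DMSO pairs). The falls numbered 16 and 20 without higher-dose replicate 1 or 2, and 20 and 14 without lower-dose replicate 1 or 2. NCAPH, a condensin subunit, read 8.51 and 8.67 against 9.25 and 9.38 (-0.73 ± 0.09 log2, adjusted p = 2.1e-05), with DMSO at 9.62 to 9.78. The kinase AURKB differed by -0.50 ± 0.06 log2. CENPM, a centromere protein, fell by 0.70 log2, from 9.44 and 9.45 to 8.68 and 8.81, and its lower dose lay at the top of the DMSO range (9.04 to 9.45). KIF15, a spindle motor, fell by 0.90 log2 with a call lost without lower-dose replicate 2 (adjusted p = 0.069), and KIF18B by 0.60 with a call lost without higher-dose replicate 1 (0.055). PLK1 differed by -0.54 ± 0.13 log2, and its call held only without higher-dose replicate 1 (0.028 to 0.11).

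DNA repair genes fell in 12 and rose in 1 of 47 measured of 56 listed, with a median of -0.13 log2 (0.12 between the DMSO pairs) and 7 to 9 falls when 1 array was omitted. Among all genes 3.71% were called lower and 5.64% higher. BRIP1, the Fanconi helicase that partners BRCA1, read 7.57 and 7.62 against 8.55 and 8.69, and 9.03 to 9.63 in DMSO (-1.03 ± 0.16 log2, 2.03-fold lower, adjusted p = 0.00019). RAD54B, FANCG, UBE2T and MSH6 fell by 0.63, 0.57, 0.55 and 0.51 log2. ERCC1, an excision repair nuclease subunit, rose by 0.48 ± 0.08 log2, and its call was lost with the mean of its probe sets or without the shared ones.

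Other large falls lay outside these lists or crossed them. SKP2, which marks p27 for destruction, read 9.14 and 9.24 against 10.26 and 10.11, and 10.40 to 10.98 in DMSO (-0.99 ± 0.16 log2, adjusted p = 0.0003). SLC16A14 fell by 1.03 log2 (7.05 and 7.33 against 8.24 and 8.20), KLRC3 by 1.1 (6.25 and 6.17 against 7.38 and 7.24) and GPX8 by 0.78. ANTXR1 fell by 0.79, a call lost with the mean of its probe sets. CDCA7, which helps to recruit the remodeler HELLS to chromatin, fell by 0.85 log2, a call lost without shared probe sets. NREP fell by 0.84 log2 on the probe set used and gave 0.03 without the shared ones.

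A few genes peaked at the lower dose. VHRT had the largest fall, from 8.69 and 8.63 to 7.17 and 7.49 (-1.33 ± 0.15 log2, 2.51-fold lower, adjusted p = 8.5e-06), while DMSO lay at 7.01 to 7.41. Its higher dose was thus near the level without compound. GJA1, the gap junction protein connexin 43, read 6.96 and 7.04 against 7.91 and 7.82, with DMSO far below at 3.39 to 3.91 (-0.86 ± 0.17 log2, adjusted p = 0.0027). CPED1 read 7.60 and 7.71 against 8.67 and 8.38, with DMSO at 6.17 to 6.49 (-0.87 ± 0.13). IFITM1, an interferon-induced membrane protein, read 7.35 and 7.23 against 7.87 and 7.86, with DMSO at 6.66 to 6.89 (-0.58 ± 0.12 log2), a call lost without higher-dose replicate 2 (adjusted p = 0.07). In all 4 genes the lower-dose arrays were above every higher-dose and DMSO array, and these genes were singled out after their values were seen.

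**Figure D3:**
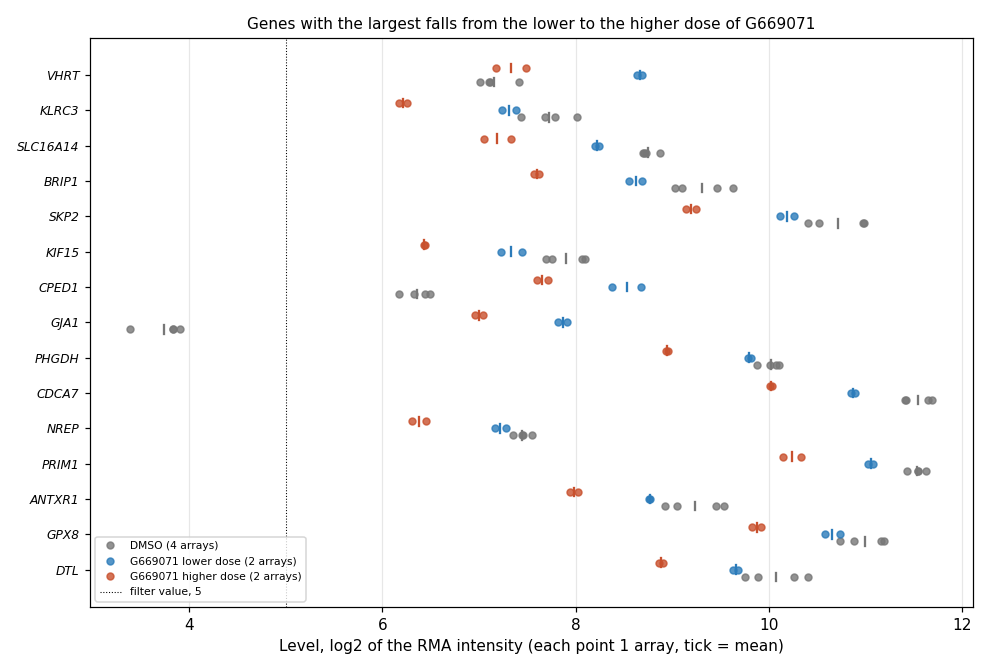
Levels of the 15 genes with the largest falls, as log2 of the RMA intensity (x axis), with 1 point per array and a tick at each group mean. In most of them the lower dose lies between the higher dose and DMSO, whereas VHRT, CPED1 and GJA1 are highest at the lower dose.

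Chemokine genes separated the 2 higher-dose arrays from each other. CXCL8 read 10.32 on replicate 1 and 8.33 on replicate 2, against 7.06 and 6.83 at the lower dose and 6.69 to 7.17 in DMSO. Its mean difference of 2.38 ± 0.37 log2 (adjusted p = 0.00026) became 1.39 without higher-dose replicate 1 and 3.37 without replicate 2, and the call held in both cases. CCL20 read 7.64 and 6.37 against 5.52 and 5.70 (1.40 ± 0.28 log2), or 0.76 without higher-dose replicate 1, where its call was lost (adjusted p = 0.078). CXCL2 read 6.87 and 5.51 against 5.10 and 5.22 (1.03 ± 0.27 log2). Its difference was 0.35 without that replicate (adjusted p = 0.43) and 1.71 without the other, and its call was also lost without lower-dose replicate 1 (0.13) or 2 (0.088). CXCL1 read 7.40 and 6.03 against 5.88 and 6.10, overlapped the lower dose, and was not called (0.73 log2, adjusted p = 0.089). It was called with the 4 G669071 arrays fitted alone. CXCL8, CCL20, CXCL2 and CXCL1 were the 4 genes of 18055 whose higher-dose replicates lay 1 log2 or more apart. No gene did so at the lower dose.

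Of 24 measured NF-κB and cytokine genes, 29 listed, 3 rose and 1 fell, TNFAIP2 at -0.33 log2, whose call held only without lower-dose replicate 1 (adjusted p = 0.039 to 0.13). The rises numbered 1 without higher-dose replicate 1 and 5 without replicate 2. The shares of all genes were 5.64% called higher and 3.71% lower. The feedback inhibitors TNFAIP3 and NFKBIA, textbook NF-κB targets, differed by 0.12 and -0.17 log2 and were not called (adjusted p = 0.50 and 0.29). NFKBIZ, an inducible co-regulator, read 6.94 and 5.99 against 5.85 and 6.04 and was not called (adjusted p = 0.27). With the 4 G669071 arrays fitted alone NFKBIZ was called.

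Stress response genes split. Of 41 measured genes of the ATF4 and unfolded protein responses, 42 listed, 5 rose and 7 fell, beside 5.64% and 3.71% of all genes. The list median was -0.07 log2 (0.14 between the DMSO pairs). The rises numbered 3 without higher-dose replicate 2, and the falls 4 without higher-dose replicate 1 or lower-dose replicate 2. ATF3, a stress-induced transcription factor, read 10.28 and 10.27 against 8.92 and 8.87, with DMSO at 8.54 to 9.05 (1.38 ± 0.13 log2, adjusted p = 1.6e-06). Of its 3 probe sets 2 had a positive difference, and without shared probe sets ATF3 gave -0.02. DDIT3 (CHOP), a pro-apoptotic factor, read 9.56 and 9.72 against 8.54 and 8.68 (1.03 ± 0.13), and the chaperone partner DNAJB9 rose by 0.72 ± 0.11 log2. ERN1, the sensor IRE1, rose by 0.55 ± 0.16 and lost its call without any 1 of the arrays (adjusted p = 0.084 to 0.30). For ATF3 and DDIT3 the lower-dose arrays lay within or next to the DMSO range and the higher-dose arrays above it.

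The 7 genes of this list that fell included several of amino acid supply. PHGDH, the first enzyme of serine synthesis, read 8.95 and 8.93 against 9.78 and 9.81, and 9.88 to 10.10 in DMSO (-0.85 ± 0.08 log2, adjusted p = 1.9e-06). The cystine carrier SLC7A11 fell by 0.60 log2 (9.13 and 9.37 against 9.87 and 9.83), the serine enzyme SHMT2 by 0.48, and the alanyl-tRNA synthetase gene AARS1 by 0.43. ATF4 itself differed by -0.40 ± 0.09 log2 (11.60 and 11.73 against 12.01 and 12.11), a call lost without higher-dose replicate 1 (adjusted p = 0.11) or lower-dose replicate 2 (0.11). DDIT4, an inhibitor of mTORC1, differed by -0.59 ± 0.13 and lost its call under the same omissions (0.068 and 0.062).

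**Figure D4:**
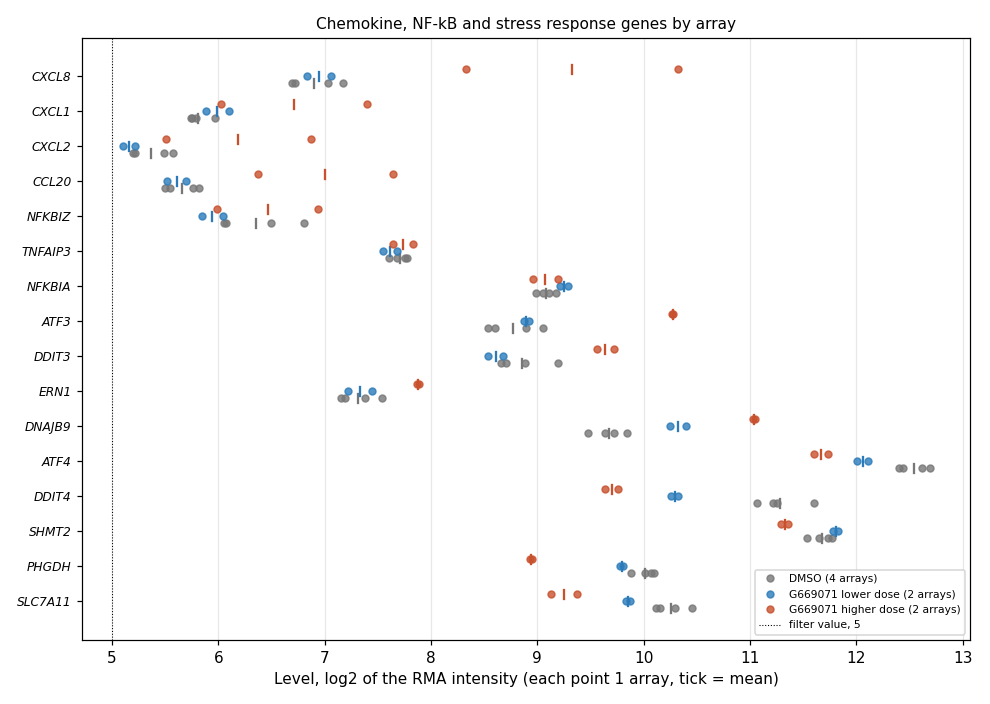
Levels of 16 chemokine, NF-κB and stress response genes by array, as log2 of the RMA intensity (x axis), with 1 point per array and a tick at each group mean. The higher-dose arrays of CXCL8, CXCL1, CXCL2, CCL20 and NFKBIZ lie far apart, whereas those of ATF3, DDIT3 and PHGDH lie close together.

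The genes of the DNA methyltransferases themselves differed little or not stably between doses. DNMT1 read 10.16 and 10.24 against 10.35 and 10.39, a difference of -0.17 log2 that did not pass (adjusted p = 0.41), and DNMT3A differed by -0.08 (adjusted p = 0.71). With the 4 G669071 arrays fitted alone DNMT1 was called and DNMT3A was not. DNMT3B, a de novo methyltransferase, read 8.59 and 8.50 against 9.06 and 9.18 (-0.57 ± 0.17 log2), and UHRF1, which guides DNMT1 to new DNA, 10.85 and 10.98 against 11.45 and 11.32 (-0.47 ± 0.13). The calls of DNMT3B and UHRF1 were lost without any 1 of the arrays (adjusted p = 0.11 to 0.25 and 0.083 to 0.23). On the list of 30 measured genes of DNA methylation, 31 listed, 3 fell and 1 rose, beside 3.71% and 5.64% of all genes. The third fall was the histone demethylase gene KDM1A (-0.25 log2, adjusted p = 0.26 without higher-dose replicate 1, 0.078 and 0.19 without lower-dose replicate 1 and 2), and the rise was MBD1 (0.42 log2, -0.04 without shared probe sets, and lost without any 1 array at 0.12 to 0.15). RNA levels say nothing here of protein.

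Genes for nucleoside handling rose in 4 and fell in 7 of 41 measured of 44 listed, with 2 rises without higher-dose or lower-dose replicate 2. Fewer falls were called without either higher-dose replicate or without lower-dose replicate 2. Among all genes 5.64% were called higher and 3.71% lower. UPP1, uridine phosphorylase, read 9.90 and 9.98 against 8.99 and 8.98 (0.96 ± 0.13 log2), and the efflux pump ABCG2 rose by 0.72 ± 0.11. TYMS, thymidylate synthase, fell by 0.48 log2, and 2 of its 3 probe sets had a negative difference. DCK, the kinase that activates decitabine, CDA, which deaminates it, and the carrier SLC29A1 differed by -0.14, 0.24 and -0.20 log2, and none was called (adjusted p = 0.81, 0.098 and 0.38). CDA was called with the 4 G669071 arrays alone, the 20 treated arrays alone, a replicate block over all arrays, or arrays centred on their medians. SLC29A1 was called with the 4 G669071 arrays alone, and DCK under no alternative. Of 30 measured phosphatases, esterases and related enzymes that can act on prodrugs, 33 listed, 1 rose and 1 fell. That is a smaller share than the 9.35% called over all genes. NT5E rose by 0.90 ± 0.22 log2 and ABHD10 fell by 0.40. The NT5E call was lost without higher-dose replicate 1 (adjusted p = 0.085) or 2 (0.073) or lower-dose replicate 2 (0.18). HINT1, a phosphoramidase, differed by 0.06 log2 (adjusted p = 0.49).

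No gene was called among 22 measured antigen presentation genes or 30 of oxidative phosphorylation, whose differences ran from -0.28 to 0.32 and from -0.21 to 0.23 log2. Of 49 measured interferon-stimulated genes, 56 listed, 3 rose and 3 fell, a share not far from the 9.35% of all genes, with a median of -0.01 log2 (-0.08 between the DMSO pairs), and 1 fell and 2 rose without higher-dose replicate 2, or 2 and 2 without either lower-dose replicate. IRF7, a factor that drives interferon genes, read 10.28 and 10.44 against 9.40 and 9.51, with DMSO at 7.95 to 8.43 (0.91 ± 0.16 log2), and the exonuclease gene ISG20 rose by 0.61 ± 0.10. LGALS3BP fell by 0.58 log2.

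Markers of other cell types were read against the 9.35% called over all genes. None of 13 measured fibroblast or 12 measured blood genes was called, and their summed linear levels were 2624 to 2696 and 1706 to 1800 at the higher dose against 2602 to 2650 and 1817 to 1842 at the lower dose. Neuronal genes had 1 call of 17 (NEFH, 0.81 log2) and keratinocyte genes 2 of 13 (DSC3, 0.49, and KRT16, -0.46), and all 3 calls were lost under some omission of 1 array. Summed levels were 11699 to 12116 against 11237 to 11541 for the neuronal list and 4767 to 4900 against 4522 to 4523 for the keratinocyte list. Their part in the results above was not tested. Of 18 measured epithelial genes 1 rose and 3 fell (1 to 2 fell when 1 array was omitted), with KRT19 0.42 log2 higher (call lost with the mean of its probe sets) and ELF3 0.44 lower. ESRP1, a splicing regulator of epithelial cells, and the tight junction gene CLDN4 differed by -0.39 and -0.40 log2 between doses. Between the higher dose and DMSO they differed by -1.06 and -0.97. Of the 2 probe sets of CLDN4 only 1 had a negative difference between doses. The ESRP1 dose call was lost without any 1 of the arrays (adjusted p = 0.10 to 0.18), and that of CLDN4 held only without lower-dose replicate 2 (0.048 to 0.12).

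DAC at 5 µM against 120 nM and G668684 at 7 µM against 150 nM give 2 further dose differences in the same cells. The doses are not matched, so the values stand side by side and no difference between compounds was tested. Over all genes, 14.7% were called between the DAC doses and 11.6% between those of G668684, beside 9.35% for G669071. For TAC1 they were 3.32 log2 for DAC and 3.18 for G668684, beside 3.62 for G669071. For CDO1 they were 1.71 and 1.78 beside 3.07, and for CDKN1A 1.08 and 1.16 beside 0.86. PRIM1 fell in each case, by 0.64, 0.84 and 0.82 log2. The medians of the S phase list were -0.37, -0.36 and -0.36, and those of the p53 list 0.39, 0.42 and 0.22.

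The germ cell list had a median dose difference of 0.06 log2 for DAC and 0.11 for G668684, with 9 genes called higher for each and 3 and 1 called lower, beside 0.51 with 20 and 0 for G669071. NANOS1, on the probe set used, differed by 1.41 and 1.28 log2 beside 1.29. DDX4 differed by 0.77 and 0.56 beside 0.78, and HENMT1 by 1.04 and 0.94 beside 1.38. MAEL differed by 0.03 log2 for DAC and 0.20 for G668684, neither called, beside 1.16 for G669071, and CTAG2 by -0.22 and -0.08, neither called, beside 1.21. LIN28B was lower at the higher dose of both other compounds (-0.72 and -0.55, adjusted p = 0.0037 and 0.029), whereas it was 0.64 higher for G669071. TKTL1 was also lower (-0.70 and -0.59, adjusted p = 0.012 and 0.039). The median of the cancer-testis list was -0.19 for DAC, -0.01 for G668684 and 0.36 for G669071. HS3ST1 and ANXA10, lowered by G669071 at both doses to 1.70 and 1.44 log2 or more under DMSO, differed by -0.17 and -0.15 between its doses, neither called (95% intervals -0.60 to 0.27 and -0.31 to 0.01), beside 1.05 and 0.72 for DAC and 0.86 and 0.38 for G668684.

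**Figure D5:**
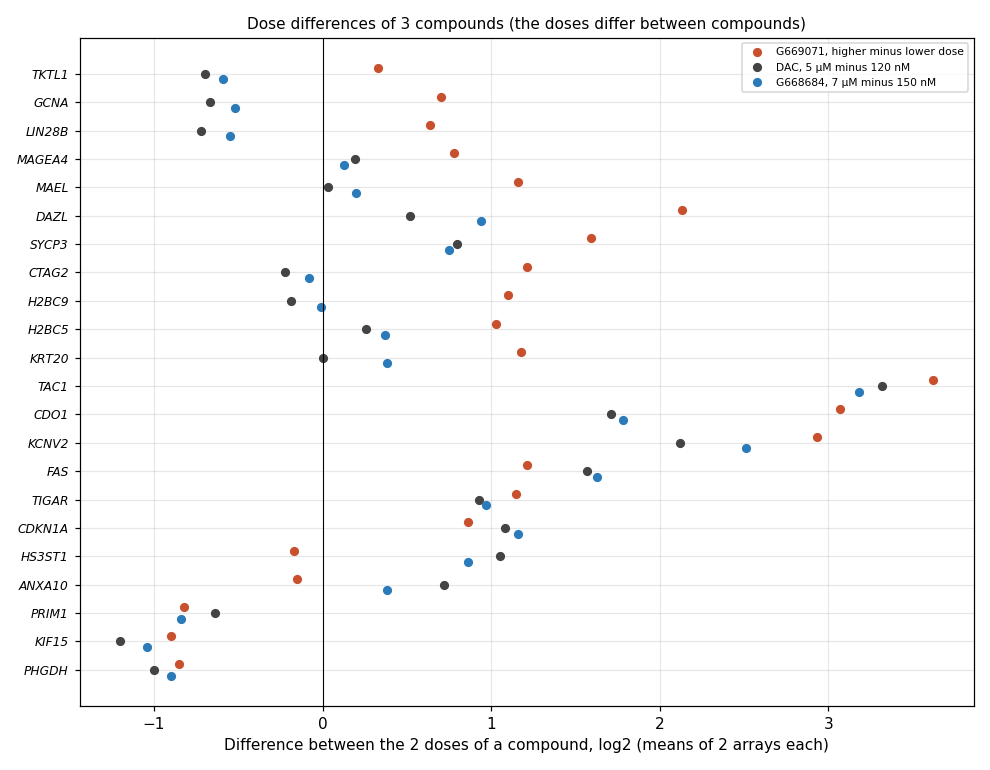
Difference between the 2 doses of G669071, of DAC and of G668684 in log2 (x axis) for 22 genes chosen after their values were seen, with 1 point per compound from means of 2 arrays a dose. The doses differ between compounds, TAC1 is far to the right for all 3, and GCNA, LIN28B and TKTL1 lie right of 0 for G669071 and left of 0 for the others.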

How the data were processed

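Levels are the authors' deposited RMA intensity values on a linear scale (made with RMA in Expression Console 1.1 of Affymetrix, per the submitters' processing notes), 1 column per array, with log2 taken here. All of them were log2 values kept to 2 decimals (100% within 0.002). No source used here names the authors' genome build. Groups were taken from the titles. Of 54675 probe sets, 62 are controls, 41091 have 1 gene symbol, 1801 several and 11721 none in the platform annotation, and only the first kind names a gene. Probe sets at log2 of 5 or more on at least 2 arrays were kept (35146), with 1 per gene, that of the highest mean (18055 genes). No detection calls were used. limma 3.58.1 in R 4.3.3 (lmFit, contrasts.fit, eBayes with trend) fitted 1 mean per group over 24 arrays, with 13 residual and 6.14 prior degrees of freedom. Genes with a Benjamini-Hochberg adjusted p under 0.05 (2-sided) were called. The number of arrays limits the precision.

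Genes named are the 15 largest rises and falls with groups that do not overlap, up to 4 called members of each of 30 lists, a set of control genes, and others added after their values were seen. The members and lists were chosen with earlier results of these data known. Promoter sequences come from RefSeq (GRCh38.p14), matched by symbol. On simulated data with 200 changed genes of 18055, 58.8%, 97.8% and 99.7% of changes of 0.5, 1 and 2 log2 were recovered. The median was 9.5 false calls over 10 draws. These draws used independent noise around otherwise equal group means, so they held no shared shift such as that between the DMSO pairs. Alternatives covered the arrays fitted, filter, normalization, probe sets, model settings, block and omission of each array. Python 3.11.15 and matplotlib 3.10.9 made the figures.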

Additional observations from a re-analysis of the deposited data

Results flagged for a closer look

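In the 4 DMSO arrays, 4 of the 203 named genes had a sample far from the others, and chance alone picks out about 1 in 20 groups of this kind. CHFR read 6.29 on DMSO replicate 1 and 6.00 to 6.04 on the others. GJA1 read 3.39 on replicate 2 against 3.83 to 3.91. LUZP4, a cancer-testis gene, read 7.54 on replicate 3 against 7.85 to 7.90, and TNFRSF10D read 7.68 on replicate 2 against 7.99 to 8.01. Groups of 2 arrays, such as the doses of G669071, were too small for this comparison.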

How the results depend on the processing

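The count of 1688 genes called between the doses was 4640 with the 4 G669071 arrays fitted alone, 2582 with the beta-actin signal as a covariate and 1108 without probe sets that may bind several transcripts. It was 134 at a change of at least 2-fold and 899 at an adjusted p under 0.01. Omitting 1 array gave 725 to 1870 genes. Deviations of same-numbered arrays of the 2 doses correlated at -0.02 across genes. This does not settle whether replicate numbers pair cultures, which the labels do not state. With the replicate number as a block over all arrays 2533 genes were called, and with a block within each compound 1210. The share of calls that were higher was 60.4%, 69.8% with arrays centred on their medians and 54.1% after a further quantile normalization. Against DMSO, the lower dose had 1309 to 3080 calls when 1 array was omitted, beside 2815, and 4988 with DMSO replicates 3 and 4 as the only DMSO arrays. The higher dose had 3789 to 5492 with 1 array omitted, beside 5322. Without the shared probe sets NREP gave 0.03 log2, FAS -0.04, CDKN2D -0.23, MBD1 -0.04, ATF3 -0.02 and GDF15 -0.10, and the sign turned because another probe set then stood for the gene. Of 185 called genes in the named pool, 99 kept their call under every alternative run, and 54, 49, 45 and 60 lost it without higher-dose replicate 1, 2, lower-dose replicate 1 or 2. The cause of these changes was otherwise not tested. No detection calls were used, so low levels cannot be set against background.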

Other observations

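Genes of cholesterol and fatty acid synthesis rose in 6 and fell in none of 26 measured of 33 listed. Over all genes 5.64% were called higher and 3.71% lower. The list median was 0.09 log2 (0.08 between the DMSO pairs, replicates 3 and 4 minus 1 and 2). SQLE, squalene epoxidase, read 11.42 and 11.42 at the higher dose against 10.62 and 10.61 at the lower dose and 10.13 to 10.47 in DMSO (0.81 ± 0.09 log2, adjusted p = 8.8e-06). NSDHL rose by 0.54 ± 0.08 log2. The rises numbered 2 to 3 when 1 array was omitted, and HMGCS1, the synthase that feeds the pathway, lost its call without any 1 of the arrays (adjusted p = 0.15 to 0.23). Genes of glycolysis and hypoxia rose in 6 and fell in 3 of 28 measured, beside 5.64% and 3.71% of all genes. The glucose carrier SLC2A3 read 11.09 and 10.97 against 9.95 and 9.96, and 7.54 to 7.96 in DMSO (1.08 ± 0.13 log2). PDK1, which holds back pyruvate oxidation, read 7.72 and 7.66 against 6.61 and 6.66, with DMSO between them at 6.97 to 7.44 (1.05 ± 0.18). Of the 3 probe sets of PDK1 2 had a positive difference. The glycolytic enzyme genes GPI and PFKM fell by 0.40 and 0.51 log2.

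Of 27 measured WNT targets and antagonists 4 rose and 1 fell, beside 5.64% and 3.71% of all genes. The secreted antagonist DKK1 read 13.29 and 13.25 against 12.48 and 12.47 (0.79 ± 0.12 log2), WIF1 rose by 1.01 ± 0.18 from a low level (5.28 and 5.63 against 4.38 and 4.52), and RNF43 fell by 0.39, a call lost without higher-dose replicate 1 (adjusted p = 0.29) or 2 (0.097) or lower-dose replicate 2 (0.46). KRT20, a keratin of differentiated colon epithelium, read 9.55 and 9.56 against 8.38 and 8.38 and 5.75 to 5.97 in DMSO (1.18 ± 0.12 log2, adjusted p = 1.9e-06). It was among 2 calls of 25 measured intestinal differentiation genes, a smaller share than the 9.35% of all genes. Not both calls held when 1 array was omitted. CBR1, a carbonyl reductase on the NRF2 list, rose by 1.69 ± 0.13 log2 (8.75 and 8.79 against 7.01 and 7.16), while NQO1, a defining NRF2 target, fell by 0.41 ± 0.05, and the list of 28 measured genes had 4 rises and 3 falls, with 2 rises without lower-dose replicate 2. The shares of all genes beside the NRF2 list were again 5.64% called higher and 3.71% lower. CCN2, a matricellular growth factor, read 10.97 and 11.03 against 9.30 and 8.97 and 6.73 to 7.35 in DMSO (1.86 ± 0.15 log2). MYC read 11.46 and 11.54 against 11.22 and 11.16 (0.31 ± 0.08), a call lost without any 1 of the arrays (adjusted p = 0.057 to 0.17).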
